A study of Mus musculus with 6 samples.

Results

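Lysosomal cathepsins are the proteases that break down protein inside lysosomes, and cystatins are the small proteins that inhibit many of them. The 10 genes described here were taken by name, with earlier results of these data known: the 8 cathepsins Ctsa, Ctsb, Ctsc, Ctsd, Ctsh, Ctsl, Ctss and Ctsz, and the 2 cystatins Cst3 and Cstb. All 10 were among the 51361 genes of the count table, and all 10 passed the filter on low counts, with 16657 genes in all. Their mRNA was measured by bulk RNA sequencing in cells sorted as CD4+CD25+Foxp3+ and labelled regulatory T cells (Tregs), which hold back immune responses, with 500 to 1000 cells to a library. In the libraries of both operated groups the markers went against that label: T cell markers took a smaller part of the counts than markers of monocytes and macrophages, with the values given below, so the levels are described by library and not as those of Tregs.

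There were 3 groups of 2 libraries: brain after transient middle cerebral artery occlusion (tMCAO brain), blood after the same operation (tMCAO blood) and blood after a sham operation (sham blood). tMCAO models ischaemic stroke by closing a brain artery for a time, here 60 min, and cells were taken 14 days afterwards. For sham blood no day of sampling after the operation is recorded here, so that interval may differ. Mice of every group, sham controls included, were male, 9 weeks old, on the C57BL/6N background and carried Tg(Foxp3-DTR/EGFP)23.2Spar, a transgene in which Foxp3 sequences drive a diphtheria toxin receptor and green fluorescent protein. The labels do not say whether a group's libraries stem from different or pooled animals, and p-values therefore reflect only how far these libraries vary, which may be technical.

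As background, cathepsins are made as inactive precursors that travel to the lysosome, where acid activates them. Most are cysteine proteases, Ctsd is an aspartic protease and Ctsa a serine carboxypeptidase. Macrophages and microglia, the resident macrophages of the brain, are rich in lysosomes and in these enzymes; in antigen-presenting cells Ctss trims the invariant chain from MHC class II molecules. Cystatin C, the product of Cst3, is secreted, whereas cystatin B, the product of Cstb, stays in the cytosol. TFEB, TFE3 and MITF are related transcription factors known to act on lysosomal genes through E-box-type sequences, and PU.1 is a factor of myeloid cells.

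Promoter windows from 250 bases before to 50 bases after the start of transcription were taken from RefSeq (GRCm38.p6), which held 8 windows for 7 of the 10 genes: Ctsa with 2, and Cst3, Ctsc, Ctsd, Ctsl, Ctss and Ctsz with 1 each. Ctsb, Ctsh and Cstb had none in the table. The 4 windows below are shown because they hold the matches to E-box or M-box letters found among these genes. They are those of Ctsd (chr7:142387778-142388077, minus strand), Ctsl (chr13:64370471-64370770, minus strand), the second window of Ctsa (chr2:164833523-164833822, plus strand) and Ctss (chr3:95526536-95526835, plus strand). Capitals mark every match on either strand to CACGTG (E-box), TCATGTG (M-box) or GAGGAA (the core bound by PU.1).
Ctsd: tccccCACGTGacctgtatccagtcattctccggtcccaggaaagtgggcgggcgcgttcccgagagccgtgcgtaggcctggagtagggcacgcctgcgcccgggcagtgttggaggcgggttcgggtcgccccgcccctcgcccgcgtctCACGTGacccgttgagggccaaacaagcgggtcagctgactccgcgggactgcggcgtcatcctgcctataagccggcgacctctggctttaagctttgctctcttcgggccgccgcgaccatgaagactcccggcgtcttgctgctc
Ctsl: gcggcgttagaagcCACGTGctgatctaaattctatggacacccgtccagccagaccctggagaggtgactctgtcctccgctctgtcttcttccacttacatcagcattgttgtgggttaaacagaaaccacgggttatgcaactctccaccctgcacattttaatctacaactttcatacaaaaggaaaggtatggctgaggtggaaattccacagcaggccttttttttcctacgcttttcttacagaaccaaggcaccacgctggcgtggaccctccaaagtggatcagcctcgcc
Ctsa: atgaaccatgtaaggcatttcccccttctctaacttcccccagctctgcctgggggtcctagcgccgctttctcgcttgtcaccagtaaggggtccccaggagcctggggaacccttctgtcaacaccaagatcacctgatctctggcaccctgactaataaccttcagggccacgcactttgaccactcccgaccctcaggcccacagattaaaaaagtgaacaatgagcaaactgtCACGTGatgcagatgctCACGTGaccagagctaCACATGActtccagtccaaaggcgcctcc
Ctss: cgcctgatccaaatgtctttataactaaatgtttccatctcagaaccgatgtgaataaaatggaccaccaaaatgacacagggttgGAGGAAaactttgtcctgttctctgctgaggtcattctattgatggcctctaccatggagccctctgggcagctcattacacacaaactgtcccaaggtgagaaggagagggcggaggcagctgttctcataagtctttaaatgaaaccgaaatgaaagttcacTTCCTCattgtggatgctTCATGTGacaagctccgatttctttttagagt

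CACGTG stood in a window of 3 of the 7 genes, Ctsa, Ctsd and Ctsl, against 7.15% of all 32851 windows in the table and 8.09% of its 27025 genes. Counting the first transcribed base as 0, the matches began at -245 and -98 in Ctsd, at -236 in Ctsl and at -12 and 5 in Ctsa. TCATGTG stood in windows of 2 of the 7 genes, Ctsa and Ctss, against 3.77% of all windows and 4.31% of genes. GAGGAA stood in those of 3 of the 7, Cst3, Ctsc and Ctss, against 28.3% of all windows and 31.3% of genes. The 3 motifs share no letters in these windows. A match is a run of letters and not a shown binding site, and no binding was measured.

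Library totals ran between 14348179 counts, in sham blood, and 24460894, in tMCAO brain. Levels below are CPM, counts scaled to library sizes adjusted by TMM, a normalisation that discounts highly abundant genes. Foxp3, the defining gene of the sort, stood at 0.726 and 19.6 CPM in the tMCAO brain libraries, against 0.538 and 5.18 in those of tMCAO blood and 50.1 and 60.7 in those of sham blood. The first library of tMCAO brain and the first of tMCAO blood thus stood lowest for the gene that defines the labelled cell. All 18 T cell markers had counts in each library, and together they took 0.0304% and 0.174% of counts in the tMCAO brain libraries, against 0.0749% and 0.498% in those of tMCAO blood and 0.985% and 0.963% in those of sham blood. Haemoglobin and other red cell markers (7 genes) took 15.1% and 16.4% of counts in sham blood, against at most 3.80% in any other library.

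Transcripts of the 10 genes took 5.44% and 4.76% of all counts in the tMCAO brain libraries, against 1.80% and 1.08% in those of tMCAO blood and 0.354% and 0.433% in those of sham blood. The 3 pairs of shares did not overlap, and the 95% Wilson intervals reached at most 0.843% of a share to either side, which covers error in counting reads only. Microglia markers (12 genes) took 0.589% and 0.624% in the tMCAO brain libraries, against 0.0144% and 0.0207% in those of tMCAO blood and 0.0162% and 0.0215% in those of sham blood. All 12 had counts in both tMCAO brain libraries, while Sall1, a transcription factor gene of microglia, was at 0 in the 4 blood libraries. Monocyte and macrophage markers (16 genes, none at 0 in any library) took 4.26% and 1.94% in the tMCAO brain libraries, against 3.90% and 1.85% in those of tMCAO blood and 0.835% and 0.700% in those of sham blood. The part of myeloid RNA in the levels of the 10 genes was not tested. In bulk samples such as these, fewer cells of a type and less RNA per cell cannot be told apart.

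**Figure D1:**
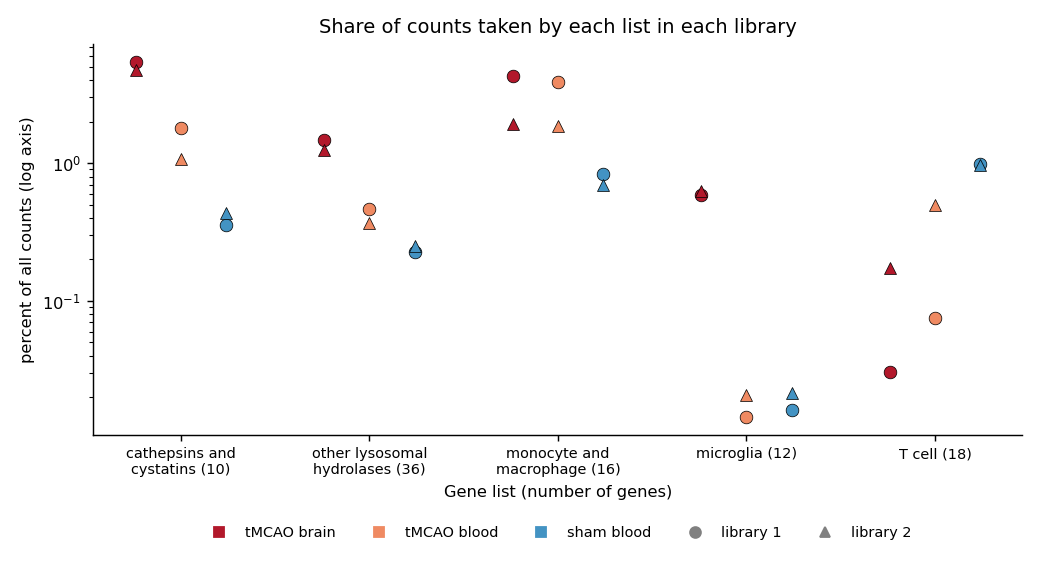
Percent of all counts (log axis) taken by the 10 cathepsin and cystatin genes, by the genes listed as other lysosomal hydrolases and by markers of monocytes and macrophages, microglia and T cells, with each library as a point. The 10 genes take 5.44% and 4.76% in the tMCAO brain libraries, against 1.80% and 1.08% in those of tMCAO blood and 0.354% and 0.433% in those of sham blood, while T cell markers are highest in sham blood.

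Among the cysteine endopeptidases, Ctsb (chromosome 14, 63122462 to 63145923, plus strand; all gene coordinates are GRCm38 and all 10 genes are protein coding) encodes one of the most widely expressed lysosomal proteases. It stood at 18613 and 11449 CPM in the tMCAO brain libraries, against 3073 and 1471 in those of tMCAO blood and 885 and 1401 in those of sham blood. Both brain libraries lay above all blood libraries, and the tMCAO blood libraries lay above those of sham blood by a narrow margin. Ctss (chromosome 3, 95526786 to 95556403, plus strand), the invariant-chain protease, stood at 13178 and 8483 CPM in the tMCAO brain libraries, against 5467 and 2894 in those of tMCAO blood and 810 and 990 in those of sham blood, with no overlap between groups.

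Ctsl (chromosome 13, 64359337 to 64370890, minus strand) encodes an endopeptidase that also acts on other protease precursors. Its levels were 2141 and 1852 CPM in the tMCAO brain libraries, against 1078 and 154 in those of tMCAO blood and 10.3 and 9.15 in those of sham blood. Sham blood was thus near the bottom of the range for this gene, with 160 and 130 counts, and the tMCAO blood libraries differed from each other 7.02-fold. The groups did not overlap.

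The exopeptidases showed the same order of groups. Ctsh (chromosome 9, 90054152 to 90076089, plus strand), an aminopeptidase, had 1279.8 and 899.9 CPM in the tMCAO brain libraries, against 350.1 and 193 in those of tMCAO blood and 65.7 and 97.5 in those of sham blood. Ctsc (chromosome 7, 88278085 to 88310888, plus strand), the dipeptidyl peptidase that activates serine proteases of immune granules, had 3586 and 1245 CPM in the tMCAO brain libraries, against 1127 and 535 in those of tMCAO blood and 323 and 485 in those of sham blood. Ctsz (chromosome 2, 174427493 to 174439039, minus strand), a carboxypeptidase, had 3371 and 2603 CPM in the tMCAO brain libraries, against 1374 and 349 in those of tMCAO blood and 199 and 194 in those of sham blood. For none of the 3 genes did any groups overlap, though Ctsc of the second tMCAO blood library lay close to the second of sham blood.

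Ctsd (chromosome 7, 142375911 to 142388038, minus strand), the main aspartic protease of lysosomes, had 6408 and 6472 CPM in the tMCAO brain libraries, against 992 and 374 in those of tMCAO blood and 87.4 and 101.7 in those of sham blood. Its brain libraries differed only 1.01-fold, and every group was clear of the next. Ctsa (chromosome 2, 164832873 to 164841032, plus strand) encodes the serine carboxypeptidase that also protects beta-galactosidase (Glb1) and neuraminidase 1 (Neu1) in a complex. It had 2688 and 1554 CPM in the tMCAO brain libraries, against 488 and 248 in those of tMCAO blood and 248 and 258 in those of sham blood. Brain stood apart, whereas the second tMCAO blood library lay level with sham blood.

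The inhibitors differed in the spread between libraries of a group. Cst3 (chromosome 2, 148871722 to 148875692, minus strand) had 12789.8 and 12742 CPM in the tMCAO brain libraries, against 3988 and 2448 in those of tMCAO blood and 742 and 754 in those of sham blood, with no overlap and a 1.00-fold difference between the brain libraries. Cstb (chromosome 10, 78425669 to 78427622, plus strand) had 1347 and 293 CPM in the tMCAO brain libraries, against 827 and 274 in those of tMCAO blood and 85.1 and 82.5 in those of sham blood. The brain libraries of Cstb differed 4.60-fold and its tMCAO blood libraries 3.02-fold, so brain and tMCAO blood overlapped, while sham blood lay below both.

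**Figure D2:**
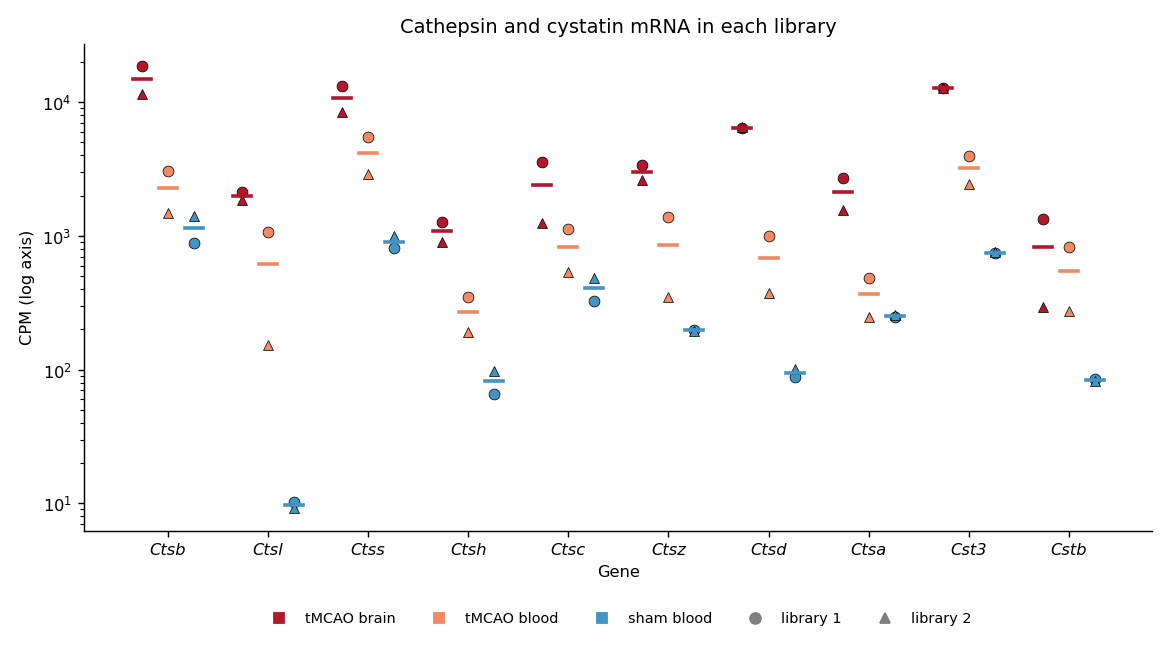
CPM (log axis) of each of the 10 genes, with 1 point per library, coloured by group and shaped by library number, and a bar at each group's mean. Both tMCAO brain libraries lie above both sham blood libraries for all 10 genes, and only Ctsa overlaps between tMCAO blood and sham blood; Ctsl spans the widest range, between 9.15 and 2141 CPM.

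The comparison of tMCAO brain with tMCAO blood sets cells sorted from the injured tissue against cells sorted from blood after the same operation. Ctsd and Ctsa were higher in tMCAO brain and passed the test, with a log2 change of 3.24 ± 0.57 (SE; 9.43-fold, edgeR adjusted p = 0.0368) for Ctsd and 2.53 ± 0.49 (5.76-fold, edgeR adjusted p = 0.0447) for Ctsa. These are 2 of the 10 genes, where 3.53% of all genes tested were called higher. Ctsb, Ctsh and Cst3 did not pass, at log2 changes of 2.73 ± 0.60, 2.01 ± 0.44 and 1.99 ± 0.45 and edgeR adjusted p of 0.0562, 0.0571 and 0.0588. Ctsz, Ctsl, Ctsc and Ctss had log2 changes between 1.37 and 1.79, and Cstb had 0.58 ± 0.79 (edgeR adjusted p = 0.667).

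Both tMCAO brain libraries lay above both tMCAO blood libraries for 9 of the 10 genes, all but Cstb, as they did for 31.4% of all genes tested. The median log2 change was 1.89 over the 10 genes and 0.06 over all genes tested. Without tMCAO blood 1 that of the 10 genes was 2.80, and the log2 change of Ctsd was 4.11, against 1.40 and 2.72 without tMCAO blood 2. With only the 2 groups compared in the fit, neither Ctsd nor Ctsa passed (adjusted p between 0.101 and 0.114), and leaving out 1 library lost both calls in 5 of 6 cases and that of Ctsa in the sixth, without tMCAO blood 1. Without the first tMCAO brain library the log2 change of Cstb was -0.98, the opposite direction.

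Between tMCAO blood and sham blood, the comparison of the operation within blood, Ctsl, Ctsd and Cst3 were higher in tMCAO blood and passed the test. The blood columns of the count table carry only the letters M and S, read here as tMCAO and sham, and the direction rests on that reading. The log2 change of Ctsl was 5.99 ± 1.00 (63.4-fold, edgeR adjusted p = 0.035), that of Ctsd 2.85 ± 0.56 (7.23-fold, edgeR adjusted p = 0.0409) and that of Cst3 2.11 ± 0.45 (4.30-fold, edgeR adjusted p = 0.0471). These are 3 of the 10 genes, where 4.33% of all genes tested were called higher. Ctss (2.22 ± 0.52, edgeR adjusted p = 0.055) and Ctsh (1.73 ± 0.44, edgeR adjusted p = 0.063) did not pass. Cstb had a log2 change of 2.72 ± 0.84 and Ctsz 2.13 ± 0.66, with edgeR adjusted p of 0.0962 and 0.0952. Ctsc, Ctsb and Ctsa had the smallest changes, 1.04 ± 0.63, 0.99 ± 0.57 and 0.54 ± 0.46.

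Both tMCAO blood libraries lay above both sham blood libraries for 9 of the 10 genes, all but Ctsa, as they did for 33.6% of all genes tested, and the median log2 change was 2.12 over the 10 genes and 0.11 over all genes tested. All 3 calls were lost without the first tMCAO blood library (adjusted p between 0.0665 and 0.1), where the log2 change of Ctsl was 3.98, that of Ctsd 1.98, that of Ctsa -0.028 and the median of the 10 genes 1.46, and without either sham blood library (0.18 to 0.304). Ctsd and Cst3 also missed the threshold without either tMCAO brain library (0.0511 to 0.0544), and without the second tMCAO blood library the log2 change of Ctsl was 6.73.

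Between tMCAO brain and sham blood, which differ in both operation and tissue, 8 of the 10 genes were higher in tMCAO brain and passed the test, where 8.01% of all genes tested were called higher. Ctsl had the largest log2 change of the 10, 7.68 ± 1.08 (205-fold, edgeR adjusted p = 0.0149). Ctsd followed at 6.09 ± 0.65 (68.1-fold, edgeR adjusted p = 0.00994), and Cst3 at 4.09 ± 0.49 (17.1-fold, edgeR adjusted p = 0.012). Ctsz, Ctsh, Ctsb, Ctss and Ctsa rose by between 8.38-fold and 15.2-fold. Cstb (3.29 ± 0.87, edgeR adjusted p = 0.0615) and Ctsc (2.58 ± 0.66, edgeR adjusted p = 0.0589) did not pass.

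Both tMCAO brain libraries lay above both sham blood libraries for all 10 genes, as they did for 34.9% of all genes tested, and the median log2 change was 3.73 over the 10 genes and 0.09 over all genes tested. All 8 calls were lost without either sham blood library (adjusted p between 0.105 and 0.181), and Ctsa, Ctsb and Ctsz without the first tMCAO brain library (0.0569 to 0.0729). The 3 comparisons share libraries in pairs, so their results are not independent of one another.

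**Figure D3:**
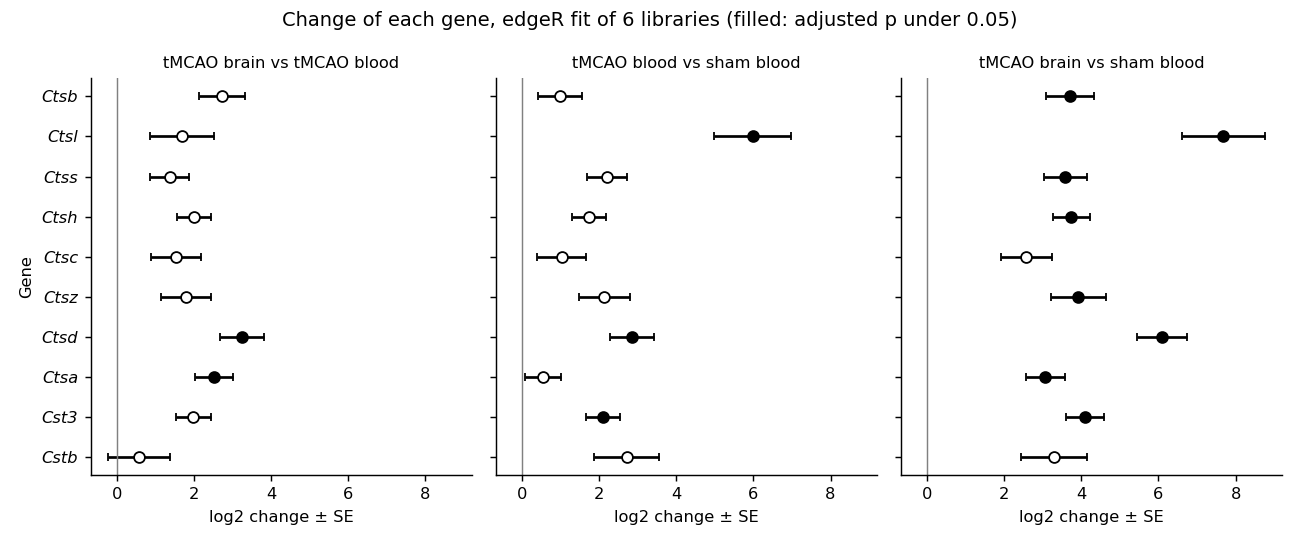
Log2 change with its SE for each of the 10 genes in the 3 comparisons, from 1 edgeR fit of 6 libraries with 2 per group; filled points have an adjusted p under 0.05. Ctsd is filled in all 3 panels, and Ctsl runs from 1.70 between tMCAO brain and tMCAO blood to 7.68 between tMCAO brain and sham blood.

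Since myeloid markers were high in both tMCAO groups, the 10 genes were set against Tyrobp, a signalling adaptor gene of myeloid and natural killer cells. Tyrobp stood at 4885 and 2712 CPM in the tMCAO brain libraries, against 4939 and 2643 in those of tMCAO blood and 525 and 547 in those of sham blood, with a log2 change of 0.0028 between tMCAO brain and tMCAO blood (edgeR adjusted p = 0.999) and of 2.82 between tMCAO blood and sham blood (edgeR adjusted p = 0.0381). Per 100 counts of Tyrobp, the 10 genes together had 1339 and 1755 counts in the tMCAO brain libraries, against 380 and 338 in those of tMCAO blood and 659 and 799 in those of sham blood. On this scale tMCAO blood was the lowest of the 3 groups, and its place against sham blood moves with Tyrobp itself. Taken singly, 9 of the 10 genes were higher in tMCAO brain relative to tMCAO blood with no overlap, as were 25.1% of all genes tested, and Cstb overlapped. Since Tyrobp was level between these groups, this count is close to a repeat of the one in CPM.

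Per 100 counts of Tyrobp, 7 of the 10 genes were lower in tMCAO blood relative to sham blood with no overlap, where 81.0% of all genes tested were, so the 7 are no result about these genes. On the same scale 4.11% of all genes tested were higher, and 1 of the 10, Ctsl, was among them, with 21.8 and 5.81 counts in tMCAO blood, against 1.96 and 1.67 in sham blood. Ctsd overlapped, at 20.1 and 14.2 counts in tMCAO blood, against 16.6 and 18.6 in sham blood, and so did Cstb. Ctsd in tMCAO brain stood at 131 and 239 counts on the same scale, above both blood groups. Tyrobp is a single gene and its own level per cell is not known here. Set against the summed counts of the 28 microglia, monocyte and macrophage markers instead, the 10 genes had 112 and 186 counts per 100 in the tMCAO brain libraries, against 46.1 and 57.6 in those of tMCAO blood and 41.6 and 60.0 in those of sham blood. On that scale 9 genes were higher in tMCAO brain relative to tMCAO blood with no overlap, as were 12.3% of all genes tested. For tMCAO blood against sham blood 3 were higher, 3 lower and 4 overlapped, where 7.23% of all genes tested were higher and 64.8% lower. A single marker, Lyz2, weighed heavily in that sum. It stood at 30329 and 8455 CPM in the tMCAO brain libraries, against 21488 and 4980 in those of tMCAO blood and 5882 and 4863 in those of sham blood. All monocyte and macrophage markers together, Lyz2 included, had 51142 and 19383, against 40589 and 15336 and against 8159 and 7067.

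**Figure D4:**
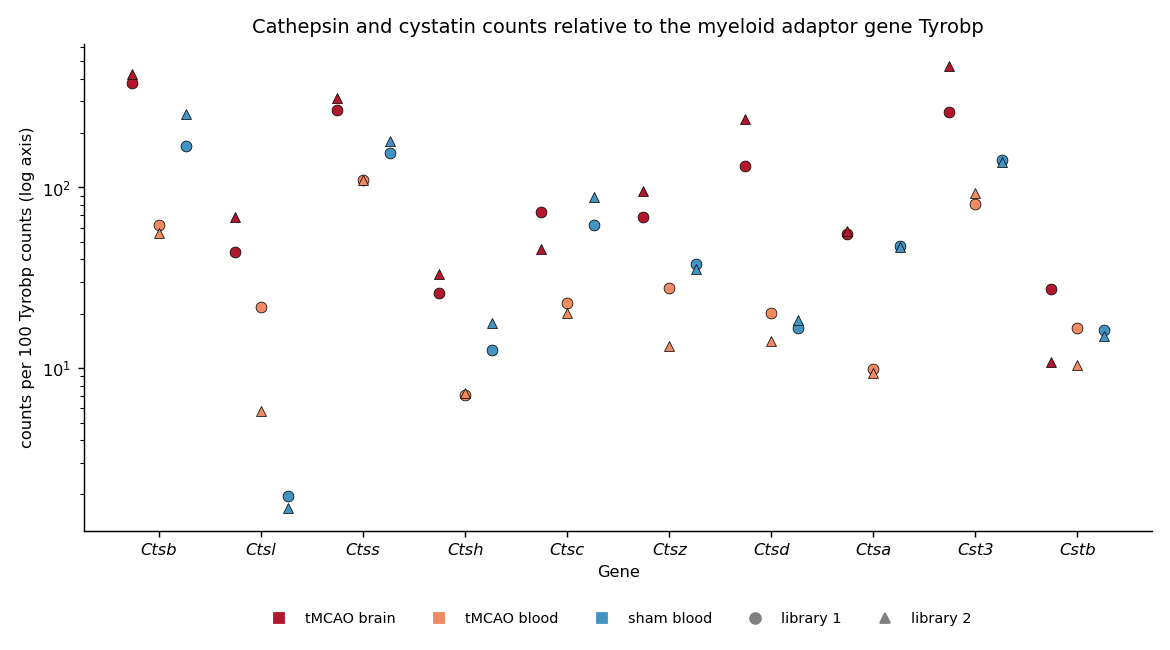
Counts of each of the 10 genes per 100 counts of Tyrobp (log axis), 1 point per library. tMCAO brain lies above tMCAO blood for 9 genes, and Ctsl is the 1 gene of the 10 for which both tMCAO blood libraries, at 21.8 and 5.81, lie above both of sham blood, at 1.96 and 1.67.

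Levels of different genes were compared as CPM per kb of exon. In tMCAO brain Cst3 led at a mean level of 10084 CPM per kb, then Ctss at 7975, Ctsd at 2739, Ctsb at 2484, Ctsz at 2073 and Cstb at 1360, with Ctsa, Ctsc, Ctsl and Ctsh between 450 and 242. Only Cst3 over Ctss, Ctss over Ctsd and Ctsl over Ctsh were free of overlap between neighbours in this order. In tMCAO blood Ctss (3078 CPM per kb) and Cst3 (2542) led and overlapped, and Cst3 over Cstb (913) was the 1 pair of neighbours that did not. In sham blood Ctss (663 CPM per kb) and Cst3 (591) led, Ctsl was last at 1.50, and only Cstb (139) and Ctsz (136) overlapped. The order depended on the length used: with the longest transcript as the length, 12 ranks moved and 18 stayed. Cst3 then came before Ctss in tMCAO blood and sham blood too. In tMCAO brain Ctsh, at 467 and 328 CPM per kb by that length, came before Ctsl, at 347 and 300, and overlapped it.

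Taking the summed level per kb of the 10 genes as the whole, Ctsd made up 8.52% and 11.3% in the tMCAO brain libraries, against 3.85% and 2.96% in those of tMCAO blood and 2.10% and 2.13% in those of sham blood. Ctsl made up 1.03% and 1.18% in the tMCAO brain libraries, against 1.51% and 0.440% in those of tMCAO blood and 0.0894% and 0.0694% in those of sham blood. Both thus held a larger part in tMCAO brain than in sham blood, without overlap. The 8 cathepsins together made up 61.4% and 56.5% in the tMCAO brain libraries, against 58.8% and 55.6% in those of tMCAO blood and 58.9% and 64.0% in those of sham blood. The tMCAO brain libraries overlapped both blood groups, while tMCAO blood lay below sham blood by a narrow margin.

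The inhibitors were also set against the 6 cysteine cathepsins (Ctsb, Ctsc, Ctsh, Ctsl, Ctss and Ctsz), the class that cystatins inhibit. Cst3 per kb stood at 0.618 and 0.946 of their summed level in the tMCAO brain libraries, against 0.532 and 0.697 in those of tMCAO blood and 0.615 and 0.496 in those of sham blood. The tMCAO brain values lay above sham blood by a narrow margin and overlapped tMCAO blood. Cstb stood at 0.137 and 0.0456 in the tMCAO brain libraries, against 0.231 and 0.164 in those of tMCAO blood and 0.148 and 0.114 in those of sham blood, so tMCAO blood lay above both other groups. These are ratios of mRNA levels and say nothing of protein or activity.

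**Figure D5:**
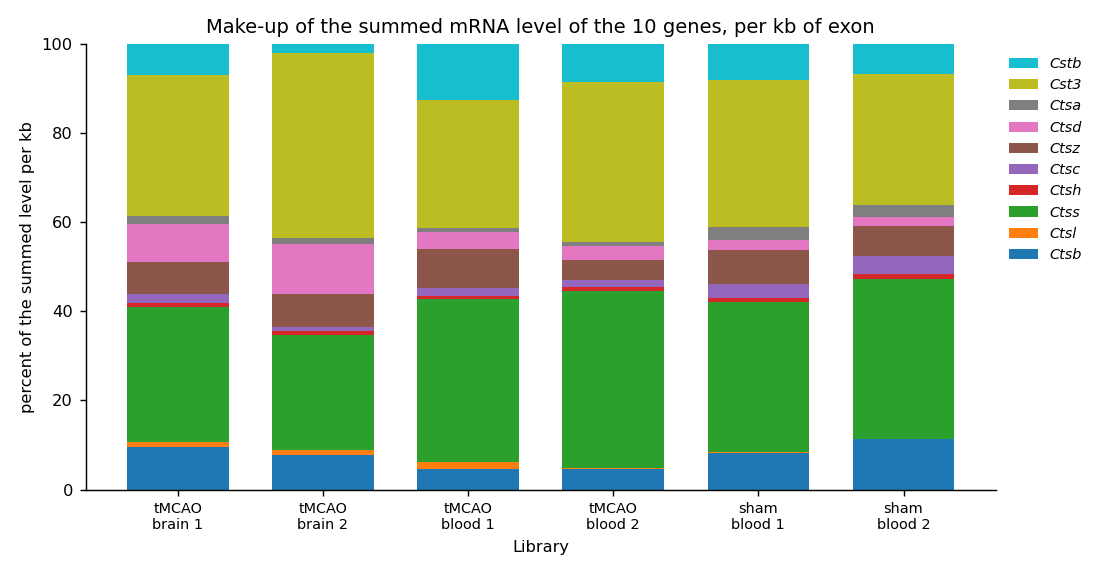
Percent of the summed level per kb of the 10 genes taken by each gene, 1 stacked bar per library. Cst3 and Ctss fill most of every bar, and the Ctsd band is widest in tMCAO brain, at 8.52% and 11.3%.

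Within the 10 genes, likeness was measured as the root-mean-square difference of log2(CPM + 1) values, centred per gene, over the 6 libraries. Ctsh and Cst3 were the closest pair at 0.278, and Ctss was nearest to Ctsh at 0.282. Ctsa and Ctsb were nearest to each other at 0.343. Ctsl stood farthest from the mean profile of the 10, at 1.64. Outside the 10, among 6599 genes averaging 20 CPM or more, the most similar to that mean profile were Ly86 (0.223), Cd68 (0.235), Hexa (0.263), Dmxl2 (0.264) and Cd180 (0.274). Cd68 encodes a lysosomal glycoprotein of macrophages, Hexa a lysosomal glycosidase subunit, and Ly86 the partner protein of the receptor encoded by Cd180. Ly86 stood at 1842 and 1118 CPM in the tMCAO brain libraries, against 491 and 299.96 in those of tMCAO blood and 70.1 and 108 in those of sham blood.

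Of 15 other cathepsin genes, 5 were tested. Ctsf, a cysteine cathepsin, was higher in tMCAO brain, at 57.1 and 43.1 CPM in the tMCAO brain libraries, against 1.29 and 1.54 in those of tMCAO blood and 7.64 and 12.6 in those of sham blood. Its log2 change was 5.13 against tMCAO blood (edgeR adjusted p = 0.0148) and 2.31 against sham blood (edgeR adjusted p = 0.0204), and between tMCAO blood and sham blood it was -2.83 (edgeR adjusted p = 0.0313). Ctse, an aspartic protease of the endosome, was lower in tMCAO blood, at 1.13 and 4.58 CPM, than in sham blood, at 83.9 and 106.6 CPM (edgeR adjusted p = 0.0313). Both genes therefore fell in tMCAO blood, where all 10 genes above had positive log2 changes. Ctsw, Ctsk and Ctso passed in no comparison by edgeR. DESeq2 called 3 of the 5 higher between tMCAO brain and tMCAO blood, Ctso among them, 1 higher and 2 lower between tMCAO blood and sham blood, and 2 higher and 1 lower between tMCAO brain and sham blood, with Ctsk among the calls of both comparisons with sham blood. In that order DESeq2 called 2099, 2065 and 2603 of all 16657 genes tested higher and 1370, 1724 and 1404 lower. By edgeR 588, 722 and 1335 were called higher and 228, 524 and 437 lower. With 5 genes tested, these calls are no result about the other cathepsins as a list.

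Of 12 other cystatin genes in the table, 3 were tested. Cst7, which encodes cystatin F, the inhibitor of lysosomal cathepsins in immune cells, had 965 and 1326 CPM in the tMCAO brain libraries, against 8.45 and 28.2 in those of tMCAO blood and 33.1 and 32.0 in those of sham blood. Its log2 change was 5.97 against tMCAO blood (62.5-fold, edgeR adjusted p = 0.0195) and 5.14 against sham blood (35.2-fold, edgeR adjusted p = 0.0138). Its tMCAO blood libraries lay below those of sham blood, unlike Cst3 and Cstb, but this change did not pass (log2 change of -0.83, edgeR adjusted p = 0.365). Stfa3, a stefin gene, had 10.6 and 6.63 CPM in tMCAO blood and no counts in tMCAO brain or sham blood (edgeR adjusted p = 0.0343 for tMCAO brain against tMCAO blood and 0.0356 for tMCAO blood against sham blood). Neutrophil markers (8 genes) took 0.140% and 0.00937% of counts in the tMCAO brain libraries, against 0.0267% and 0.772% in those of tMCAO blood and 1.31e-05% and 6.97e-05% in those of sham blood, and were highest in the second tMCAO blood library. Of the 8, 1 and 4 were at 0 in the tMCAO brain libraries, against 1 and 0 in those of tMCAO blood and 6 and 7 in those of sham blood; their part in the level of Stfa3 was not tested.

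All 36 genes listed as other lysosomal hydrolases were tested, though Psap and Npc2 among them do not encode hydrolases. By edgeR 8 were higher in tMCAO brain relative to tMCAO blood and 5 in tMCAO blood relative to sham blood. In tMCAO brain relative to sham blood 22 were higher. Of all genes tested, 3.53%, 4.33% and 8.01% were called higher in the same order. None of the 36 was called lower by edgeR, while DESeq2 and limma-voom each called 1 lower between tMCAO brain and tMCAO blood, as did edgeR at an unadjusted p under 0.05. Of all 16657 genes tested, DESeq2 called 1370 and limma-voom 449 lower there. Median log2 changes of the 36 in the same order were 1.41, 0.57 and 2.09. Lgmn, the asparaginyl endopeptidase that processes cathepsin precursors, was 13.8-fold higher in tMCAO brain relative to tMCAO blood (edgeR adjusted p = 0.0258). Gaa, the acid alpha-glucosidase of lysosomes, was 4.17-fold higher in tMCAO blood relative to sham blood (edgeR adjusted p = 0.0313). Of the partners of Ctsa, Glb1 was higher in tMCAO brain relative to tMCAO blood (log2 change of 2.03, edgeR adjusted p = 0.0327), and Neu1 passed in no comparison by edgeR. Glb1 and Neu1 were looked up for their tie to Ctsa.

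Of 30 genes of the lysosomal membrane and proton pump, 2 were higher in tMCAO brain relative to tMCAO blood and 3 in tMCAO blood relative to sham blood. In tMCAO brain relative to sham blood 8 were higher. Of all genes tested, 3.53%, 4.33% and 8.01% were called higher in the same order. None of the 30 was called lower by edgeR, against 2 called lower between tMCAO blood and sham blood by DESeq2, none by limma-voom and 2 at an unadjusted edgeR p under 0.05. Of all 16657 genes tested, DESeq2 called 1724 and limma-voom 622 lower in that comparison. The list's median log2 changes in the same order were 0.76, 0.82 and 1.68. Cd63, a tetraspanin of late endosomes and lysosomes, was among those higher in all 3. It had 3155 and 1562 CPM in the tMCAO brain libraries, against 173 and 33.7 in those of tMCAO blood and 5.01 and 4.36 in those of sham blood. Lamp1, a main glycoprotein of the lysosomal membrane, did not share that order, with 264 and 278 CPM in the tMCAO brain libraries, against 456 and 198 in those of tMCAO blood and 27.3 and 23.6 in those of sham blood. It was 12.9-fold higher in tMCAO blood relative to sham blood (edgeR adjusted p = 0.0313).

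Among 13 genes of lysosomal sorting and transcription, none passed in edgeR between tMCAO brain and tMCAO blood, 5 were higher in tMCAO blood relative to sham blood, and 5 were higher and 1 lower in tMCAO brain than in sham blood. Between tMCAO brain and tMCAO blood, 3 were higher and 2 lower at an unadjusted edgeR p under 0.05, DESeq2 called 3 higher and 1 lower, and limma-voom 1 each. Median log2 changes of the list were 0.52, 0.66 and 1.18 in the 3 comparisons. Of all genes tested, edgeR called 3.53%, 4.33% and 8.01% higher in the same order, and 437 of 16657 lower in the last. Between tMCAO brain and tMCAO blood, DESeq2 called 2099 of the 16657 higher and 1370 lower, and limma-voom 997 and 449. An unadjusted edgeR p under 0.05, in either direction, was held by 4671 genes there. Grn, which encodes progranulin, a secreted and lysosomal protein, was 11.1-fold higher in tMCAO blood relative to sham blood (edgeR adjusted p = 0.0313) and 36.2-fold higher in tMCAO brain than in sham blood (edgeR adjusted p = 0.00987). Tfe3 and Mitf were higher in tMCAO blood relative to sham blood, 5.39-fold and 7.78-fold, with edgeR adjusted p of 0.0313 and 0.0402. Tfeb passed in no comparison by edgeR, at 24.2 and 16.8 CPM in the tMCAO brain libraries, against 15.5 and 14.1 in those of tMCAO blood and 11.7 and 7.32 in those of sham blood. The lower gene was Igf2r, a mannose 6-phosphate receptor, which was picked out after its values were seen (log2 change of -2.18, edgeR adjusted p = 0.0346).

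Ctss acts with the MHC class II loading machinery, of which 11 genes were tested. None passed between tMCAO brain and tMCAO blood by edgeR, and 1, Ifi30, a lysosomal thiol reductase, was higher in tMCAO blood (8.79-fold, edgeR adjusted p = 0.0313) and in tMCAO brain (5.38-fold, edgeR adjusted p = 0.0281), each against sham blood. In the first comparison 3 were higher at an unadjusted edgeR p under 0.05, and DESeq2 called 2 and limma-voom 1. Between tMCAO brain and sham blood 8 of the 11 were higher at an unadjusted edgeR p under 0.05, and DESeq2 called 7 higher and limma-voom 1. DESeq2 called 1 higher and 1 lower between tMCAO blood and sham blood. Median log2 changes of the list were 1.65, 0.87 and 2.07 in the 3 comparisons. Of all genes tested, edgeR called 3.53%, 4.33% and 8.01% higher in the same order. Of the same 16657 genes, DESeq2 called 2099, 2065 and 2603 higher, and 1724 lower between tMCAO blood and sham blood. By limma-voom 997 were called higher in the first comparison and 1286 in the last. An unadjusted edgeR p under 0.05, in either direction, was held by 4671 genes in the first and 5034 in the last. Cd74, the invariant chain that Ctss cuts, had 4107 and 6063 CPM in the tMCAO brain libraries, against 565 and 509 in those of tMCAO blood and 369.97 and 1644 in those of sham blood. Its sham blood libraries lay on either side of tMCAO blood, unlike those of Ctss. Dendritic cell markers (8 genes) took 0.0636% and 0.128% of counts in the tMCAO brain libraries, against 0.00282% and 0.00816% in those of tMCAO blood and 0.0529% and 0.0699% in those of sham blood. The sums do not speak for each marker. Taken singly, all 8 had positive log2 changes between tMCAO brain and sham blood, at a median of 3.91. Of the 8, 7 were higher there with no overlap, as were 34.9% of all genes tested. None of the 8 was at 0 in tMCAO brain, 1 was in each tMCAO blood library and 1 in the first of sham blood; their part in the levels of the MHC class II genes was not tested.

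Some of the 10 genes share sequence or position with other genes, and whether the counting used strand is not given in the sources used here. Ctsd shares 808 bp of exon, 34.4% of its own, with the predicted gene Gm49369 on the same strand, which was at 0 in every library. Ctsb overlaps Fdft1 by 774 bp, and Ctsa overlaps Neurl2 by 324 bp and Pltp by 495 bp, each on the opposite strand. Pltp, a phospholipid transfer protein gene, had 272 and 102 CPM in the tMCAO brain libraries, against 56.6 and 22.7 in those of tMCAO blood and 7.25 and 19.8 in those of sham blood, at most 11.6% of the CPM of Ctsa in any library. Ctsl shares 24.6% of its 75-base stretches with transcripts of other genes, mainly Gm47123 and Gm49230, both at 0 in every library. The counts of Ctsd and Ctsl are the least certain of the 10 in this respect. So are their levels per kb and their parts of the summed level, since no length was corrected for shared stretches. Ctsz overlaps Nelfcd by 10 bp on the opposite strand. Ctsc, Ctsh, Ctss, Ctsz, Cst3 and Cstb share no 75-base stretch with transcripts of other genes.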

How the data were processed

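The authors deposited raw counts, 1 whole number per gene and library. STAR, HTSeq 0.11.2 and GRCm38 are named in the submitters' processing notes; the annotation, strand setting and handling of multi-mapped reads are not given in the sources used here. Per the labels' protocols, cDNA was amplified with a SMART-Seq kit, tagmented with Nextera XT and sequenced as paired 75-base reads. No molecular identifiers are named, so reads may be copies of the same molecule. The intervals cover error in counting reads only and may be too narrow for molecules. Columns named Brain were matched to tMCAO brain; the letters M and S in the blood columns were read as tMCAO and sham, a key the labels do not spell out, so the direction of tMCAO blood against sham blood rests on that reading.

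Genes were filtered with filterByExpr (minimum count 10), scaled by TMM and tested in 1 fit of all 6 libraries (3 residual degrees of freedom) by edgeR 4.0.16 (R 4.3.3), using its quasi-likelihood test. That fit shares its estimate of spread among the 3 groups. Sham blood libraries differed least, with a chi-square of counts per degree of freedom of 28.1, against 245 in tMCAO blood and 232 in tMCAO brain. Errors between tMCAO brain and tMCAO blood may therefore be understated. P-values were adjusted by Benjamini-Hochberg over all 16657 genes within each comparison, with a threshold of 0.05. The SE is the log2 change divided by the square root of F. Exon lengths and coordinates came from GENCODE M21, which held 97.2% of the gene symbols. Alternatives were DESeq2 1.42.0, voom in limma 3.58.1, DESeq2 size factors or raw library totals in edgeR, no filter, a stricter filter (5 CPM in 2 libraries), only the 2 groups compared, a replicate block and each library left out. Scripts were tested on simulated data.

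The 10 genes and all lists were chosen with earlier results of these data known. Named were the 10 genes, up to 4 called genes per list by adjusted p (or the 2 most abundant where none passed), the checks of the sort and the 5 most similar genes; a selection is given, and some are not reported here. Protein sequences were not analysed here.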

Additional observations from a re-analysis of the deposited data

How the results depend on the processing

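With 2 libraries per group, the number of calls depended on the tool and on single libraries. Without a filter 31242 genes were tested and with the stricter filter 10987, against 16657 otherwise, so their counts have unlike totals. Between tMCAO brain and tMCAO blood, 816 genes and 2 of the 10 were called; DESeq2 called 3469 and 7, limma-voom 1446 and 5, no filter 3598 and 9, the stricter filter 1237 and 5, raw library totals 853 and 4, and only the 2 groups compared 33 and 0 (edgeR; 3819 genes and 5 of the 10 had an unadjusted p under 0.05). Leaving out 1 library gave 30 to 273 genes and 0 to 3 of the 10, and 5 to 8 of the 10 had an unadjusted p under 0.05 where none was called. Between tMCAO blood and sham blood, 1246 genes and 3 of the 10 were called; DESeq2 called 3789 and 7, no filter 3611 and 7, while only the 2 groups, raw totals and the stricter filter called 1366, 1339 and 1860 genes and 5 of the 10 each. Leaving out 1 library gave 0 to 1455 genes and 0 to 6 of the 10. The count was 0 by edgeR without tMCAO blood 1, sham blood 1 or sham blood 2, where 4003, 3260 and 2572 genes, and 5, 3 and 5 of the 10, had an unadjusted p under 0.05. Between tMCAO brain and sham blood, 1772 genes and 8 of the 10 were called; DESeq2 called 4007 genes and no filter 4458. Leaving out 1 library gave 0 to 2407 genes and 0 to 10 of the 10. The 0 came without sham blood 1 or 2, where 3242 and 3075 genes, and 8 and 9 of the 10, had an unadjusted p under 0.05. The causes were not tested.

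Of 420 log2 changes of the 10 genes under alternatives, 322 kept direction and side of the threshold, 50 passed newly, 46 no longer passed and 2 reversed. Leaving out libraries, Cstb between tMCAO brain and tMCAO blood ranged from -0.98 to 1.58 and Ctsa between tMCAO blood and sham blood from -0.028 to 0.89. No scaling alternative turned the direction of any of the 10. Raw totals moved the median of all genes by -0.22, 0.10 and -0.11 in the 3 comparisons; relative to it the median of the 10 was 1.88, 1.94 and 3.60, against 1.83, 2.01 and 3.64 under TMM. Higher calls made up 53.9% under raw totals and 72.1% under TMM between tMCAO brain and tMCAO blood, and 70.6% and 57.9% between tMCAO blood and sham blood, where limma-voom gave 45.7%. The libraries share only a number: deviations correlated at 0.304 for tMCAO brain with tMCAO blood, -0.0285 for tMCAO brain with sham blood and -0.0702 for tMCAO blood with sham blood. With a replicate block, 803, 1318 and 1977 genes and 2, 2 and 9 of the 10 were called in the order above; Cst3 no longer passed between tMCAO blood and sham blood (adjusted p = 0.0572), and Cstb passed between tMCAO brain and sham blood (0.0359).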
